A study of Homo sapiens with 20 samples.

Results

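The transforming growth factor beta (TGF-beta) genes were followed in human neural progenitor cells as they differentiated towards neurons. The 10 genes chosen by name were the ligands TGFB1, TGFB2 and TGFB3, the activin subunit gene INHBA, the receptor genes TGFBR1, TGFBR2 and TGFBR3, the activin-binding protein gene FST, the latent TGF-beta binding protein gene LTBP1 and the induced matrix gene TGFBI. Each had 1 coding gene record carrying its symbol and no other, so the 10 genes are 10 of the 20237 coding records and of the 38369 records in all. All groups derive from the established human embryonic stem cell line H1. At day 0 the progenitors were growing on Matrigel in medium with FGF, a growth factor that keeps them dividing. At days 1, 2 and 4 FGF had been withdrawn and BDNF, a neurotrophic factor, had been added. The cells of days 5, 11 and 18 had the same change of medium and had also been replated at day 4 onto poly-D-lysine and laminin, so the step from day 4 to day 5 spans a new culture surface as well. The labels give 20 cultures, 3 for each of 6 days and 2 for day 5, from which the submitters dropped 1 outlying culture.

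Levels are given in FPKM, fragments normalized for transcript length and sequencing depth. The authors deposited 1 FPKM value for each record and day, estimated over the cultures of that day. No spread between cultures or read depth can therefore be given for any value below. The authors' own tests between adjacent days were not used, so no p-value is given and every change is a description of these pooled values. A change is the difference in log2(FPKM + 0.1), which understates the change of records with low values. A record is said to rise or fall where it moved by at least 2-fold on that scale. The background is the 11793 coding records with a mean of at least 1 FPKM over the 7 days. In these bulk samples, fewer cells of a type and less RNA per cell cannot be told apart.

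TGF-beta ligands are secreted in a latent form, held by a propeptide and by LTBP proteins in the matrix, and must be released before they bind. The released ligand binds the type II receptor TGFBR2, which recruits and phosphorylates the type I receptor TGFBR1, and TGFBR1 phosphorylates SMAD2 and SMAD3. TGFBR3, also called betaglycan, is a co-receptor that presents ligand, TGFB2 above all, to TGFBR2. Activins, made from INHBA and its relatives, feed into the same SMADs through their own receptors, and follistatin, the product of FST, binds activin and keeps it from them. In the developing nervous system the pathway is known for roles in progenitor proliferation, neuron survival and axon formation.

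The sequences just upstream of 6 of these genes are shown because their levels carry the main patterns. FST, TGFBI, TGFBR2 and INHBA were the genes that dropped more than 2-fold on the first day, and TGFB1 and TGFB2 were the ligands that exchanged rank. The stretches come from the RefSeq table of gene starts on GRCh38.p14, which matched all 10 genes, and were placed on hg19 by exact match. They read 5′ to 3′ on the gene's strand and stop before the first transcribed base of both RefSeq and the deposited record. Capitals mark matches to the motifs searched, and a stretch with no capitals held none.
FST: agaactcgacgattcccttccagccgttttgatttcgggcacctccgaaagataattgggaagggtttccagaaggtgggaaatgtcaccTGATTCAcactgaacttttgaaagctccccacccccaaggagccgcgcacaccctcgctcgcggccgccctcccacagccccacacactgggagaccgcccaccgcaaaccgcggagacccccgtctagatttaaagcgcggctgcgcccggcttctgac
TGFBI: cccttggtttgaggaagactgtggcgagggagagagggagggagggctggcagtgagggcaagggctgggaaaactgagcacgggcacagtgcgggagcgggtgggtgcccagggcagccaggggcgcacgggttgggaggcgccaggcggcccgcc
TGFBR2: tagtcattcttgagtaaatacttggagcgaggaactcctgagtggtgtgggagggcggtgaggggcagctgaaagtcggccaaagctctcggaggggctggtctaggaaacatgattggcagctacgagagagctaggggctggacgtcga
INHBA: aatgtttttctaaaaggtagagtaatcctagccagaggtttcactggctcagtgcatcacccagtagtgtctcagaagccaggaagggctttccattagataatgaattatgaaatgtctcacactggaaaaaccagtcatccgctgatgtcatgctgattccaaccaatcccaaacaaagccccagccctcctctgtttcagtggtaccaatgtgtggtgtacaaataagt
TGFB1: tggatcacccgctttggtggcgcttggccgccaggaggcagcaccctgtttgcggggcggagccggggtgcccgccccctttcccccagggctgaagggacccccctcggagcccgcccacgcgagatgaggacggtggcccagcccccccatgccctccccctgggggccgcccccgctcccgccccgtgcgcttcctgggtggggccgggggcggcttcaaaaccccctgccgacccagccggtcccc
TGFB2: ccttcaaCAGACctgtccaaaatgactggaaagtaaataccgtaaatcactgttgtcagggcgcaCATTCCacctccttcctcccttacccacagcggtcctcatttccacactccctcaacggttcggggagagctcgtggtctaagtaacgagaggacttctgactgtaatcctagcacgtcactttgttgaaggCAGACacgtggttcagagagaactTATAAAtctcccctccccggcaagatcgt

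On hg19 these stretches are chr5:52776209-52776458 (plus strand) for FST, chr5:135364427-135364583 (plus) for TGFBI, chr3:30647843-30647993 (plus) for TGFBR2, chr7:41742707-41742938 (minus) for INHBA, chr19:41859828-41860077 (minus) for TGFB1 and chr1:218518428-218518677 (plus) for TGFB2. The RefSeq start of TGFB2 lies 713 bases upstream of the nearest transcript start in the deposited record, and the 3′ end of the antisense record described below lies inside the TGFB2 stretch. The antisense record of INHBA, linc-INHBA-AS, likewise ends inside the INHBA stretch. The spans of linc-FST-AS and linc-TGFBR2-BP, on the other strand, cover the FST and TGFBR2 stretches. Whether exons of these 2 records lie there was not examined. The motifs searched were the SMAD box CAGAC, the AP-1 site TGANTCA, the TEAD site GGAATG and the TATA box TATAAA, on both strands of the 250 bases before the RefSeq start, with no overlap among the matches found. The SMAD box was found in 3 of the 10 genes (TGFB2, TGFBR1 and LTBP1) and in 38.0% of 35116 promoter windows of that length. TGFB2 held it at 243 and 53 bases upstream of the start. FST held the only AP-1 match among the 10 genes, 160 bases upstream, against 6.57% of all windows. It reads TGATTCA, with T at the position N, where the search took any base. TGFB2 held the only TEAD match, 185 bases upstream, against 11.9%. A TATA box was found in TGFB2, TGFB3 and INHBA, 29, 30 and 11 bases upstream, against 10.7%, and that of INHBA lies beyond the printed stretch. The 4 genes that dropped on the first day had no searched motif in common, and their windows ran from 42.8% GC (INHBA) through 58.4% (TGFBR2) and 60.0% (FST) to 72.8% (TGFBI), against a median of 58.0% over all windows. TGFB1 had 76.8% and TGFB2 50.4%. A match is a description of the letters and not a binding site.

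Over the whole course the genes went different ways. TGFB1, TGFBR2, TGFBR3, TGFBI and FST fell between day 0 and day 18, by 7.73-fold to 44.5-fold in FPKM. TGFBR1 and LTBP1 ended lower by less than 2-fold, TGFB3 stayed near its starting value, and TGFB2 was the only gene of the 10 with a higher value at the end, by 1.71-fold. INHBA went from 1.35 to 0.150 FPKM, with a mean under the minimum of 1 FPKM. Of the 11793 background records 29.9% fell and 7.57% rose over the same interval, and of the 8 genes that passed the minimum 5 fell and none rose. TGFBR2 and TGFBI passed that minimum mainly through day 0, so those 2 could hardly have been counted without a difference.

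**Figure D1:**
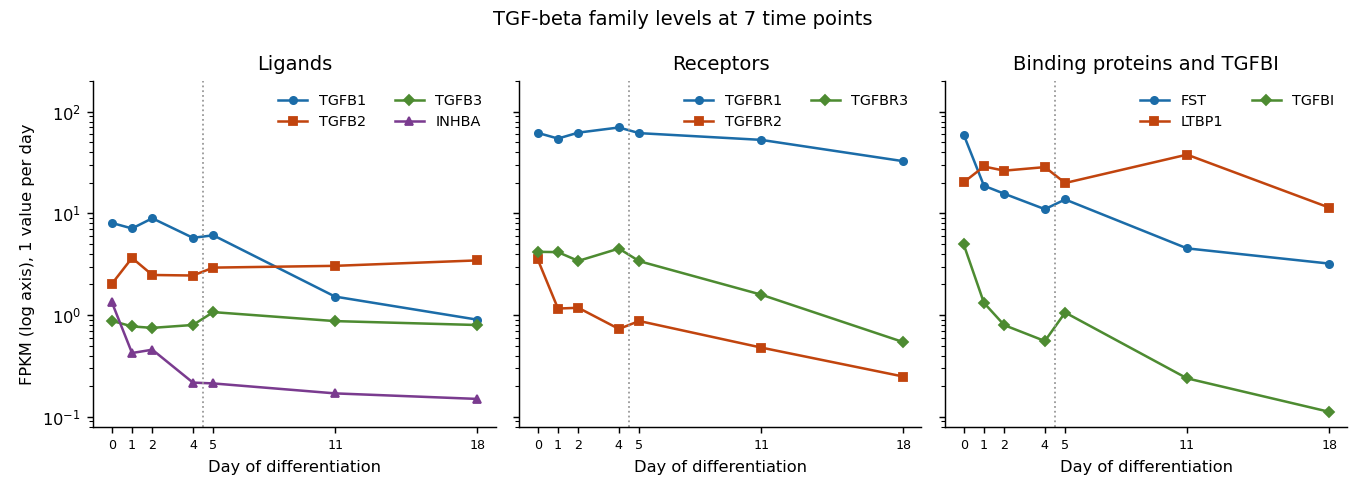
FPKM of each gene (log axis) against day of differentiation, with ligands on the left, receptors in the middle and binding proteins with TGFBI on the right. Each point is the authors' value over the cultures of 1 day, without error bars because single cultures were not analysed here, and the dotted line marks the replating at day 4. TGFBR1 stays near the top throughout, whereas TGFB1 crosses under TGFB2 between day 5 and day 11.

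Among the ligands, TGFB1 (chromosome 19, 41836651 to 41859816, minus strand, 1 transcript) was the most abundant at the start. Its FPKM was 8.06, 7.11, 8.95, 5.75, 6.09, 1.52 and 0.902 in the order of the 7 days. The level thus held through day 2, eased by day 4 and dropped between day 5 and day 11, a change of -1.94 at that step. From day 0 to day 18 the change was -3.03, and 205 of the 11793 background records had a larger fall.

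TGFB2 (chromosome 1, 218519391 to 218617959, plus strand, 5 transcripts), the isoform that depends most on betaglycan for receptor binding, read 2.02, 3.65, 2.48, 2.45, 2.93, 3.05 and 3.45 FPKM in the same order. Its highest value came on day 1, 1.81 times day 0, and after a dip the values at days 5, 11 and 18 were each above the one before. The change from day 0 to day 18 was 0.75, under the 2-fold limit. An antisense noncoding record, linc-TGFB2-AS, covers 8.49% of the exon bases of TGFB2 and went from 0.397 to 1.34 FPKM, from 19.7% to 38.7% of the TGFB2 value. Reads were counted with default options, whose library type is unstranded, so fragments in shared bases cannot be told apart by strand. How much of the TGFB2 value this concerns was not tested.

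TGFB3 (chromosome 14, 76424442 to 76448092, minus strand, 2 transcripts) was low and flat. It read 0.879, 0.774, 0.749, 0.800, 1.07, 0.873 and 0.799 FPKM, so its highest value, at day 5, was 1.43 times its lowest. With a mean of 0.849 FPKM it did not pass the minimum and enters no count. No record on either strand shared exon bases with TGFB1 or TGFB3.

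The balance among the 3 ligands shifted as TGFB1 went down. Their summed FPKM went from 11.0 at day 0 to 10.1 at day 5 and 5.15 on the last day. TGFB1 made up 73.6%, 61.6%, 73.5%, 63.9% and 60.3% of the sum at days 0, 1, 2, 4 and 5, then 27.9% at day 11 and 17.5% at day 18. TGFB2 made up 18.4%, 31.7%, 20.3%, 27.3%, 29.1%, 56.1% and 67.0% on the 7 days. TGFB3 held 6.15% to 16.0%. TGFB1 was 4.00 times TGFB2 at day 0, and TGFB2 was 3.83 times TGFB1 at day 18. These shares are taken within a day, so a scaling of the whole day does not move them.

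**Figure D2:**
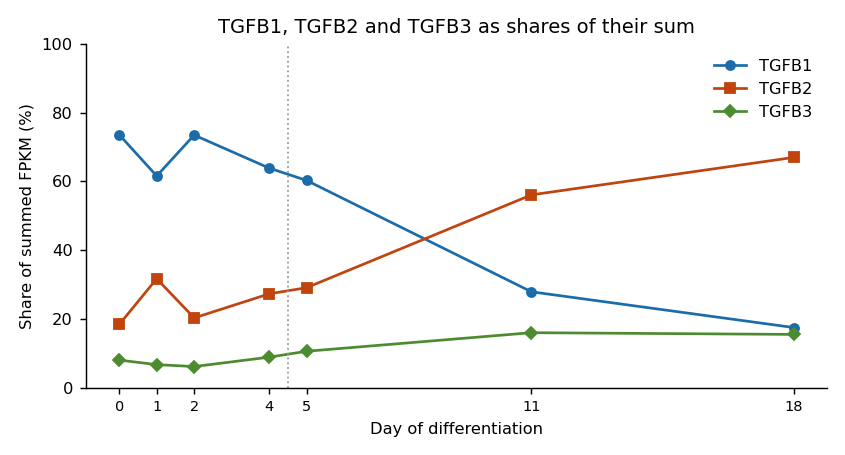
Share of the summed FPKM of TGFB1, TGFB2 and TGFB3 (percent, per length) held by each ligand against day of differentiation, 1 pooled value per day, with the replating marked by the dotted line. TGFB1 falls from 73.6% to 17.5% of the sum and TGFB2 takes its place, from 18.4% to 67.0%.

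The activin subunit gene INHBA (chromosome 7, 41728603 to 41742706, minus strand, 2 transcripts) encodes the chain that pairs to form activin A. Its values were 1.35, 0.424, 0.457, 0.217, 0.213, 0.170 and 0.150 FPKM, a drop of 3.19-fold on the first day followed by a further decline to day 4 and little movement after. All 2265 exon bases of the record (100%) also lie in linc-INHBA-AS on the other strand, which went from 0.347 FPKM before differentiation to 0.0594 at day 4 and 0.163 on the last day. The level of INHBA is uncertain for that reason, most of all from day 11, where the antisense record is at 0.126 FPKM beside 0.170 for INHBA.

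Of the receptors, TGFBR1 (chromosome 9, 101867412 to 101916471, plus strand, 4 transcripts), the type I kinase, was the most abundant gene of the 10 on every day. It read 61.9, 54.4, 62.2, 69.9, 61.5, 52.8 and 32.6 FPKM. Its level ranked between the percentiles 93.7 and 96.3 among all coding records of each day, and its change from day 0 to day 18 was -0.92.

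TGFBR2 (chromosome 3, 30647994 to 30735631, plus strand, 2 transcripts), the type II kinase that binds the ligand first, was far lower and fell. Its FPKM was 3.54, 1.16, 1.18, 0.731, 0.875, 0.480 and 0.249, so day 0 stood above every later day. The first day alone brought a 3.06-fold drop, and the whole course a change of -3.39, with 123 background records falling further. In percentile among coding records TGFBR2 moved from 52.2 to 35.3. Noncoding records on the other strand cover 27.1% of its exon bases, and both were at or under 0.0685 FPKM on every day.

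The co-receptor gene TGFBR3 (chromosome 1, 92145902 to 92371559, minus strand, 5 transcripts) kept its level until late. It read 4.19, 4.16, 3.41, 4.51, 3.39, 1.59 and 0.543 FPKM. It fell at both of the last steps, by 1.05 between days 5 and 11 and by 1.39 between days 11 and 18 on the log2 scale, and by 7.73-fold in FPKM over the whole course.

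The 2 kinases therefore drew apart. Per length and within each day, TGFBR1 was 17.5 times TGFBR2 before differentiation and 46.9, 52.5, 95.6, 70.3, 110 and 131 times on the 6 later days. TGFBR3 and TGFBR2 were close at day 0, with a ratio of 1.18, and the ratio peaked at 6.17 on day 4, TGFBR2 having dropped early and TGFBR3 late. At day 18 it was 2.18.

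FST (chromosome 5, 52776595 to 52781902, plus strand, 2 transcripts) started almost level with TGFBR1 and ended far under it. Its values were 59.6, 18.7, 15.6, 11.0, 13.7, 4.53 and 3.21 FPKM. The loss came at 2 steps, a change of -1.67 on the first day and of -1.58 from day 5 to day 11, with a value at day 5 slightly above that at day 4. Over the whole course FST changed by -4.17, with 68 background records falling further, and it moved from percentile 94.3 to 54.0 among coding records. Its antisense record linc-FST-AS shares 1124 exon bases, 82.3% of those of FST. That record read 13.7% to 17.8% of the FST value on each day and went down with it, from 8.99 to 0.511 FPKM, so the share of fragments that belongs to each strand is uncertain. FST was 44.1 times INHBA at day 0 and 21.5 times at day 18, and the ratio was highest, at 64.2, on day 5. INHBA was then at only 0.213 FPKM, and at 0.150 on day 18. Both genes share most or all exon bases with an antisense record, so the course of this ratio is uncertain.

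LTBP1 (chromosome 2, 33172392 to 33624573, plus strand, 7 transcripts), which tethers latent ligand to the matrix, did not move one way. It read 20.2, 28.9, 26.3, 28.5, 19.9, 37.8 and 11.4 FPKM, so the highest and the lowest value stand next to each other at days 11 and 18. The last step was a change of -1.72, past 2-fold, whereas the whole course from day 0 gave -0.82. Relative to the summed ligand FPKM, LTBP1 went from 1.84 times at the start to 6.94 times at day 11 and back to 2.21 times at day 18.

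TGFBI (chromosome 5, 135364584 to 135399506, plus strand, 6 transcripts), a secreted matrix protein named for its induction by TGF-beta, had the steepest fall of the 10 genes. Its FPKM was 4.97, 1.32, 0.797, 0.556, 1.06, 0.239 and 0.112. It lost 3.78-fold on the first day, stood higher at day 5 than at day 4, and lost a further 1.78 on the log2 scale by day 11. Day 0 was 44.5 times day 18, and only 43 background records fell further than its change of -4.58. Antisense records cover 68.1% of its exon bases, but each of them was at or under 0.0876 FPKM on every day.

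The order of the 10 genes by FPKM changed with these shifts. At day 0 it ran TGFBR1, FST, LTBP1, TGFB1, TGFBI, TGFBR3, TGFBR2, TGFB2, INHBA and TGFB3. At day 18 it ran TGFBR1, LTBP1, TGFB2, FST, TGFB1, TGFB3, TGFBR3, TGFBR2, INHBA and TGFBI. TGFB2 rose from the eighth to the third place and TGFBI went from the fifth to the last. As values of single cultures were not used here, it cannot be said which neighbours in either order differ beyond their error. Close neighbours were TGFBR1 and FST at day 0 (61.9 and 59.6 FPKM) and, at day 18, TGFB2 and FST (3.45 and 3.21 FPKM), on which the third place of TGFB2 rests, and TGFB1 and TGFB3 (0.902 and 0.799 FPKM).

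**Figure D3:**
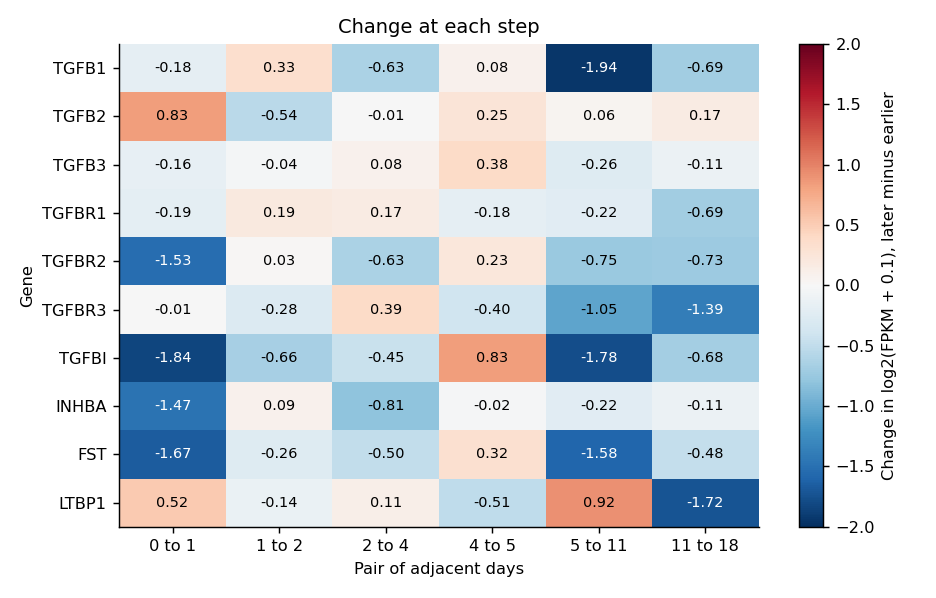
Change in log2(FPKM + 0.1) of each gene between adjacent days, later minus earlier, printed in each cell and coloured from blue (lower) to red (higher). The deep blue cells lie at day 0 to 1 for TGFBR2, TGFBI, INHBA and FST and at day 5 to 11 for TGFB1, TGFBI and FST, and LTBP1 drops at the last step.

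The changes were gathered at the first step and after day 5, the steps at which the background also moved most. The steps after day 5 span more days than the others. From day 0 to day 1, TGFBR2, TGFBI and FST fell, 3 of the 8 genes that passed the minimum, when 3.09% of background records fell. TGFBR2 and TGFBI passed that minimum mainly through day 0, so their part in this count was largely fixed by the filter. None of the 8 rose, against 3.60% of the background. Of these 3, only TGFBR2 is left when genes with more than 50% antisense overlap are set aside. Between days 1 and 2 and between days 2 and 4 none of the 8 fell or rose, in a background where 0.144% and 0.653% fell and 0.136% and 0.127% rose. The step across the replating, day 4 to day 5, also moved none of them by 2-fold, against 0.0509% lower and 0.254% higher in the background. The largest change there was 0.83 for TGFBI.

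From day 5 to day 11, TGFB1, TGFBR3, TGFBI and FST fell, 4 of 8, while 4.24% of background records fell, and none rose, against 1.80%. With a pseudocount of 1 in place of 0.1, 2 genes passed at this step. Relative to the median record of the step, TGFBR3 no longer passed 2-fold and LTBP1, at 0.92 as deposited, passed it upward, which gave 3 lower and 1 higher. From day 11 to day 18, TGFBR3 and LTBP1 fell, 2 of 8, against 3.72% of the background, and none rose, against 0.839%. The median change of the 8 genes was -0.90 at the former step and -0.69 at the latter, beside -0.16 and -0.28 over the background. TGFBI and FST fell at the first step and again from day 5 to day 11. TGFBR2 passed 2-fold at the first step only, and TGFB1 and TGFBR3 at later steps only. The 6 steps share their days, so a value that is off at a day moves the step on either side of it.

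The scale of the days moved as well. The median background record changed by -0.60 from day 0 to day 18, and the summed FPKM of all records went from 413978 to 251156. Measured relative to that median, 12.1% of background records fell and 14.7% rose, in place of a large excess of falls. The same 5 genes fell, with changes relative to the median of -2.43 for TGFB1, -2.79 for TGFBR2, -2.14 for TGFBR3, -3.98 for TGFBI and -3.57 for FST. TGFB2 then passed 2-fold upward at 1.35, TGFBR1 (-0.32) and LTBP1 (-0.22) lay near the median record, and INHBA was at -1.94. The sign of TGFB3 depended on the scale, -0.12 as deposited and 0.48 relative to the median.

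**Figure D4:**
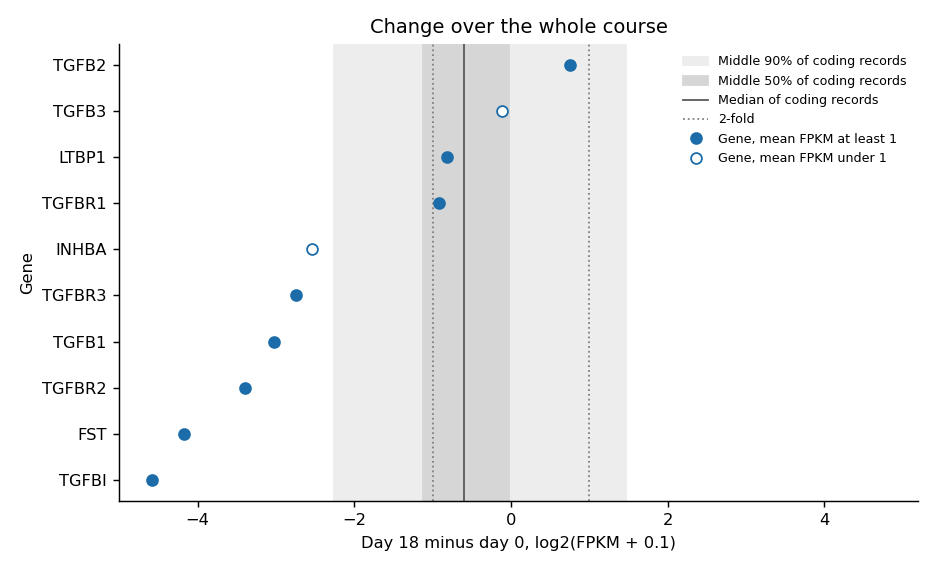
Change from day 0 to day 18 in log2(FPKM + 0.1) for each gene, with filled points for a mean of at least 1 FPKM and open points below it. Grey bands show the spread of the 11793 background records, whose quartiles lie at -1.12 and -0.03 and of which 5% lie under -2.26 and 5% above 1.47, the solid line their median of -0.60 and dotted lines a 2-fold change. TGFBI, FST, TGFBR2, TGFB1, TGFBR3 and INHBA (open point) lie beyond the lower edge of the outer band and TGFB2 lies above the inner band.

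The profiles of the 3 genes with the largest changes among those passing the minimum were compared with 5539 background records that varied by at least 1 log2 unit, by Pearson correlation of log2(FPKM + 0.1) over the 7 days, given as a description. TGFBI was most like CD34 (0.9961), YWHAZ (0.9930) and HEG1 (0.9924). At days 0 and 18 CD34 read 5.93 and 0.0400 FPKM, YWHAZ 444 and 136, and HEG1 20.6 and 2.52. FST was most like 2 records of CD99, which share near-identical sequence and so share reads (0.9988 and 0.9984), and LAMC1 (0.9973), the laminin gamma chain, which read 129 FPKM at day 0 and 7.10 at day 18. TGFBR2 was most like INTS6 (0.9976), ANXA6 (0.9962) and SH3BGRL3 (0.9959). A coefficient of at least 0.95 was common, reached by 395, 808 and 771 records, so the likeness of an early and lasting fall is shared widely.

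Other genes of the pathway, in lists that leave out the 10, were counted over the same interval. Of 80 symbols 79 had a record and 58 passed the minimum. From day 0 to day 18, 28 of them fell, 3 rose and 27 did neither, with a median change of -0.95, beside 29.9% lower and 7.57% higher in the background and its median of -0.60. Relative to the median record 24 fell and 9 rose, beside 12.1% and 14.7% of the background. The counts of each list below are to be read beside these same background shares.

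Of the other ligands, 4 of 11 with a record passed, 2 of which fell and none rose. GDF15, a stress-induced member of the superfamily, climbed from 5.98 to 21.4 FPKM at day 2 and was back at 3.49 by day 4 and at 0.896 by day 18. INHBE, the activin E subunit gene, went from 0.868 to 14.5 on the first day and was down to 0.122 at day 18. Both rose on day 1, unlike INHBA. GDF11, a myostatin-like ligand, read 14.9 and 20.2 FPKM at days 0 and 18. INHBB, the activin B subunit gene, had a mean under the minimum and was singled out after its values were seen. It read 0.109, 0.184, 0.294, 0.158, 0.299, 1.07 and 1.70 FPKM, the opposite course to INHBA, and was above INHBA from day 5 on.

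The activin receptors that passed the minimum did not fall as TGFBR2 did. Of 8 listed receptors and co-receptors 4 passed, 2 rose, none fell and their median change was 0.78. With a pseudocount of 1 only 1 rose. ACVR2A, an activin type II receptor, rose from 6.74 to 21.4 FPKM, and ACVR1B, the activin type I receptor, from 9.77 to 20.5. ACVR2B, the other activin type II receptor, read 13.0 and 18.4. ENG, a TGF-beta co-receptor under the minimum and named with its values in view, had 3.18 FPKM at day 0, 0.605 at day 1 and 0.200 at the end, a change of -3.45. TDGF1, a co-receptor of pluripotent cells, was listed at 0 on every day.

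Genes of latency, storage and activation came lower for the most part. Of the 10 that passed, 7 fell, none rose and the median change was -1.84, against 29.9% lower and 7.57% higher in the background. MMP2, a matrix protease, fell from 70.1 to 4.37 FPKM, and FBN2, a fibrillin of the microfibrils to which LTBP proteins attach, from 51.0 to 5.17. THBS1, which can release latent TGF-beta, read 63.0 at day 0, peaked at 90.2 on day 4 and fell to 16.1 at day 18. ITGB8, the integrin chain that with ITGAV activates latent TGF-beta in neural tissue, did not fall, with 34.9 and 45.6 FPKM at days 0 and 18, whereas ITGAV fell from 35.0 to 6.22.

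Of 6 extracellular antagonists and modulators that passed, 2 fell and none rose, with a median of -0.48. That is near the 29.9% of background records that fell. BGN, a small matrix proteoglycan, fell from 10.9 to 0.0315 FPKM, and passed the minimum only through its early days. FSTL1, a follistatin-like glycoprotein, fell from 108 to 34.2.

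The counts for the intracellular part of the pathway stand beside a background where 29.9% fell and 7.57% rose. All 8 SMAD and anchor genes passed, 1 fell, none rose and the median was -0.42. SMAD3, a receptor-activated SMAD, fell from 17.2 to 6.36 FPKM, while SMAD2, its partner, read 14.3 and 10.8, USP9X, a deubiquitinase, 27.3 and 16.8, and SMAD4, the common SMAD, whose record is merged with ELAC1, 24.1 and 15.1. Relative to the median record none of the 8 passed 2-fold, against 12.1% lower and 14.7% higher in the background. Of 9 corepressors and ubiquitin ligases 2 fell and 1 rose, near the 29.9% and 7.57% of the background. NEDD4L, a ubiquitin ligase that acts on activated SMADs, rose from 6.27 to 25.9 FPKM. TGIF2, merged with C20orf24, fell from 80.6 to 33.6 and TGIF1 from 24.1 to 11.6, both corepressors, though neither passed 2-fold relative to the median.

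Genes known to be induced by TGF-beta in other cells had the lowest median of the pathway lists. Of 24 listed 21 passed, 14 fell, none rose and the median was -2.48, against 29.9% lower and 7.57% higher in the background. By single steps, 4 fell on the first day, when 3.09% of the background fell, and 12 between days 5 and 11, against 4.24%. The 12 are not all among the 14, since CDKN1A and BHLHE40 fell at that step (by 1.06 and 1.11 on the log2 scale) but did not pass 2-fold over the whole course. The summed FPKM of the list went from 1597 at day 0 to 934 at day 5, and then to 371 and 286 on the last 2 days. POSTN, a matrix protein, fell from 12.5 to 0.229, TPM1, a tropomyosin, from 253 to 45.4, and CTGF, a matrix-associated signalling protein, from 131 to 37.6 after a peak of 296 at day 2. SMAD7, SKIL and PMEPA1, the feedback inhibitors in the list, did not move by 2-fold, with 2.10 and 1.70, 10.9 and 7.61, and 2.69 and 2.90 FPKM at days 0 and 18. These 3 were picked with their values in view.

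**Figure D5:**
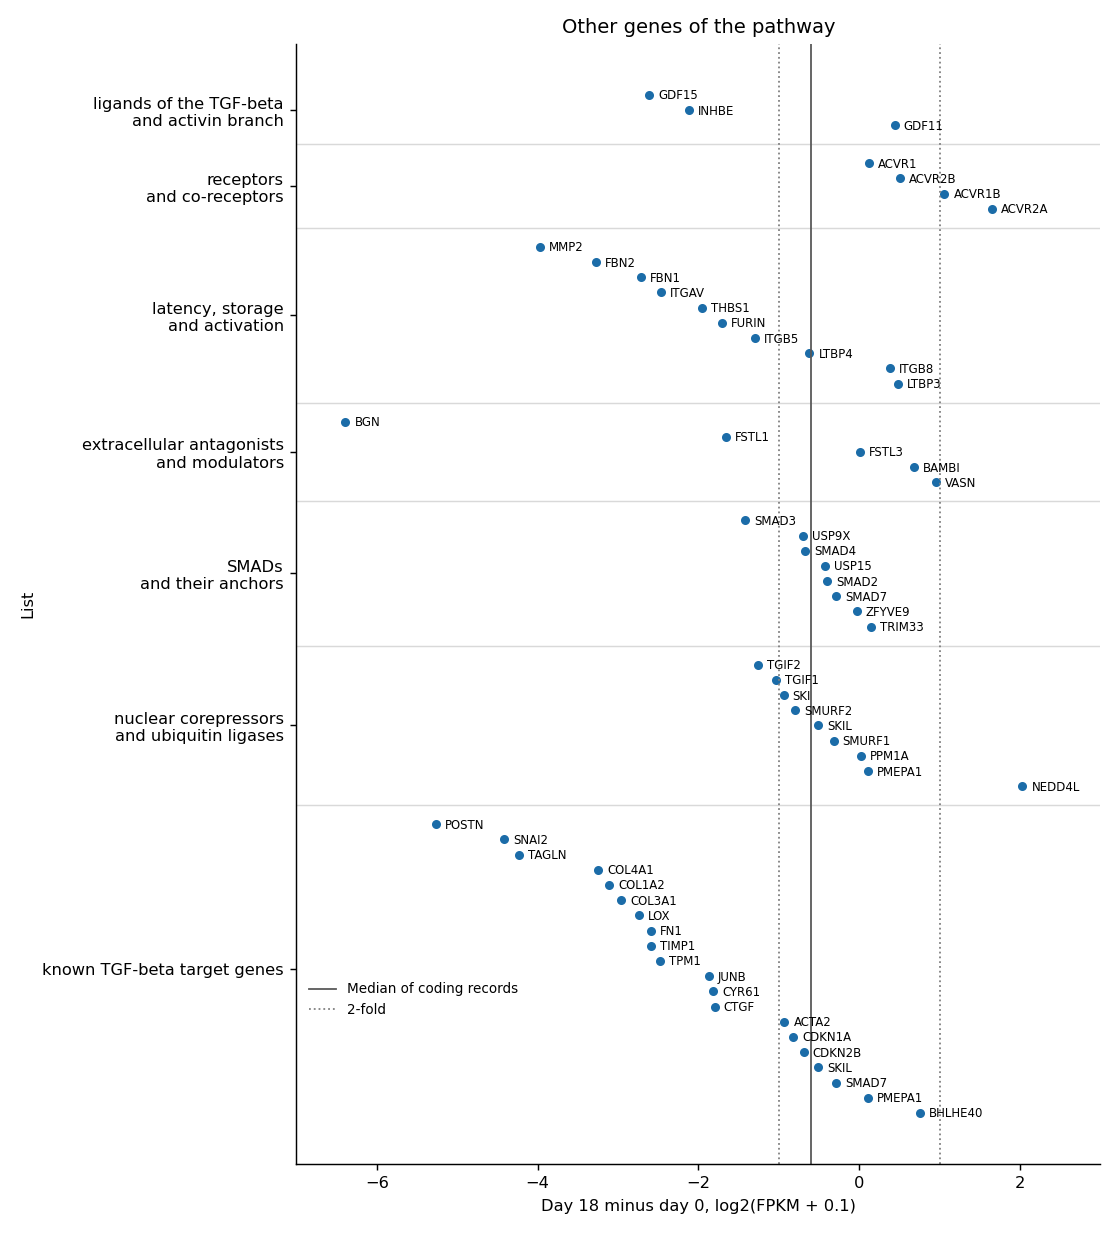
Change from day 0 to day 18 in log2(FPKM + 0.1) of the 58 further pathway genes that passed the minimum, except 2 not shown, as 1 point per gene and list, ordered by change within a list (SKIL, SMAD7 and PMEPA1 stand in 2 lists). The solid line is the background median of -0.60 and dotted lines a 2-fold change. Target genes and matrix genes reach far to the left, whereas ACVR1B, ACVR2A and NEDD4L lie beyond 2-fold on the right.

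Markers of the labelled cells and of others moved alongside. Their counts from day 0 to day 18 stand beside 29.9% lower and 7.57% higher in the background. The summed FPKM of 9 neural progenitor markers lay between 2076 and 4764 on the 7 days, most of it from VIM (1493 to 3914). It was 3887 at day 0 and 2076 at day 18, while 2 of the 9 fell, 2 rose and 5 did neither. The sum of 9 neuron markers went from 515 at day 0 to 1378 at day 18, and 7 rose. STMN2 carried most of the increase in this sum, from 32.3 to 727, while NEFL fell from 153 to 68.1. GAP43 read 193, 55.7 and 173 at days 0, 1 and 18. Of 10 mesenchymal markers 6 passed the minimum and all 6 fell, their sum going from 310 at day 0 over 155 at day 5 and 89.3 at day 11 to 40.2 at day 18, with COL1A1 listed at 0 on every day. COL3A1 made up 238 of the 310 at day 0. PDGFRB, merged with CSF1R, passed the minimum only through its 2.99 FPKM at day 0, so its fall was fixed by the filter. On the first day 4 of the 6 fell, POSTN, LUM, PDGFRB and THY1. Of the target genes 4 are also in that mesenchymal list. The endothelial and blood markers, 2 of 6 above the minimum, summed to 27.4 at day 0, 6.20 at day 1 and 1.62 at day 18. Of those 2, KDR fell from 23.8 to 0.700 and made up most of the sum at day 0. CD68 did neither, with 0.953 and 0.872 FPKM at the first and last day. The sum over 8 markers of dividing cells, all of which fell, went from 758 at day 0 and 431 at day 1 to 150 at day 18. All 8 were lower at day 1 than at day 0, 2 of them by at least 2-fold. The summed mesenchymal (310 and 277), endothelial and dividing-cell markers were thus lower at day 1 than at day 0 and lower again at day 18. So were TGFBI, FST and TGFBR2. A lower sum at day 1 was not particular to those lists. Neuron markers went from 515 to 393, astrocyte and oligodendrocyte markers from 17.3 to 7.62 and pluripotent markers from 9.82 to 6.77. Few genes carried these sums, so they do not show a fall across each list. The neuron sum fell through GAP43 (193 to 55.7) and NEFL (153 to 102), while MAP2 went from 93.5 to 139. By 2-fold, 1 neuron marker (GAP43) fell and 1 (DCX) rose, when 3.09% of the background fell and 3.60% rose. S100B, at -2.70 on the log2 scale, carried most of the astrocyte and oligodendrocyte decline. DPPA4 (9.72 to 6.71) made up nearly all of the pluripotent sum. The summed progenitor markers were instead higher at day 1, from 3887 to 4200, where VIM alone went from 2948 to 3408. Of those 9 markers 2 fell and 1 rose on the first day, beside the same background shares. The part of any of these cells in the falls of TGFBI, FST and TGFBR2 was not tested.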

How the data were processed

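Polyadenylated RNA of 20 cultures was sequenced as paired ends. The authors aligned reads to hg19 with TopHat2 and estimated expression with Cuffdiff2 under default settings, and deposited FPKM values as 1 value per record and day over the cultures of that day. Versions are not given in the sources used here. Columns of single samples numbered 0, so the depth is unknown and no replicate error, count test or interval could be computed. Other columns deposited by the authors give exon coordinates, which were used for gene positions and overlaps between strands. A further table holds the authors' comparisons of the 6 adjacent pairs of days (values, log2 fold changes, test statistics, p-values and q-values), which were not used.

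Groups came from the sample titles. Changes in log2(FPKM + 0.1) were computed in Python 3.11.15 with pandas 2.3.3 and numpy 2.4.6. Positions are on hg19. The 10 genes and all lists were chosen with earlier results of these data known. Named were the 10 genes, the 3 records most alike in profile to each of the 3 genes with the largest change, and from each list, among records with a mean of at least 1 FPKM, the 2 highest in level and the 2 largest changes, with any others identified in the text. ITGAV, SMAD2, CDKN1A, BHLHE40 and the marker genes given with values were named after their values were seen. Of the list genes under this rule, 2 enter the counts but are not reported here. Alternatives were a pseudocount of 1, changes relative to the median, no minimum, fold limits of 1.5 and 4, other first and last days, and treatments of merged and multiple records.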

Additional observations from a re-analysis of the deposited data

How the results depend on the processing

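With 1 pooled value per day these counts carry no error, and the unknown depth limits values under about 1 FPKM most, such as those of TGFB3, INHBA, and TGFBI and TGFBR2 at late days. No paired analysis was possible because no values of single cultures were used, so the replicate block and leaving out each replicate were not run. Of 51 alternatives to the main counts 37 stayed within 1.5 times. Many of these had little room to move, as the main count was 0 at the steps ending on days 2, 4 and 5. Each gene had 1 unmerged record, so the treatments of merged and multiple records could not change the counts of genes. Falls and rises were added together. Thus 5 lower and 1 higher relative to the median, over the whole course, was taken as staying. A fold limit of 1.5 gave 8 genes in place of 5 from day 0 to day 18, and at the steps ending on days 2, 4 and 5 it gave 1, 2 and 1 in place of 0. It gave 6 in place of 2 at the step ending on day 18. A fold limit of 4 gave 0 in place of 3, 4 and 2 at the steps ending on days 1, 11 and 18, and 19 in place of 31 over the pathway lists. A pseudocount of 1 gave 2 at the step ending on day 11 and 1 at that ending on day 18, since it shrinks the change of low values. Leaving out the 3 genes with antisense overlap above 50% (TGFBI, INHBA and FST), an alternative chosen after seeing the data, gave 3 for the whole course, and 1 and 2 at the steps ending on days 1 and 11. Of 35 alternatives for the counts of each pathway list 14 moved by more than 1.5 times. From day 5 to day 11 the total of 4 held relative to the median but was made of 3 lower and 1 higher. Of 60 alternatives for single genes none changed sign past the limit, though fold limits leave the change as it is and could not change a sign. Below the limit the sign did change for LTBP1 up to day 11 (0.90) and for TGFB2 from day 1 (-0.08). It also changed for TGFB3 relative to the median (0.48) and from day 1 (0.04). Of the 60, 5 took a gene past the limit: TGFB2 relative to the median (1.35) or at a limit of 1.5, TGFBR1 and LTBP1 at a limit of 1.5, and LTBP1 from day 1 (-1.34).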
